A study of Mus musculus with 2 samples.

Results

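Of the 20807 protein-coding genes on the mouse autosomes, 9166 had a CpG-rich promoter, meaning at least 50 CpG dinucleotides in the 1 kb centred on the start of the longest transcript. At 440 of these promoters (4.80%) no row of the shorter peak list came within 1 kb of that start in either of 2 cortex libraries. These 440, the members, were thus chosen by the measured cuts themselves, through the shorter peak lists, and "closed" stands for the absence of a shorter-list row in both mice. The data were DNase-seq, in which the nuclease DNase I cuts DNA that proteins leave exposed in the nucleus. Left cerebral cortex was taken from female B6CASTF1/J mice, hybrids of the B6 and CAST strains, at an age of 36 days, and each animal gave 1 library. The labels number them replicate 1 and replicate 2. There is only 1 group and hence no comparison between conditions and no test. The labels list both animals under 1 shared donor entry.

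Most CpG-rich promoters in vertebrates coincide with CpG islands, stretches of unmethylated DNA that stay free of stable nucleosomes in nearly every tissue, whether or not the gene is strongly transcribed. Housekeeping genes use such promoters, and so do many regulators of embryonic development. In cells that do not use them, the developmental islands are typically held by Polycomb complexes, which mark chromatin with trimethylated lysine on histone H3, while CpG islands of germ line genes and the silent copies of imprinted genes are among those that carry DNA methylation. A CpG-rich promoter without DNase I cutting is therefore the less usual state for this promoter class, and neither histone marks nor DNA methylation were measured here.

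The upstream DNA of 5 members shows what kind of sequence was left without a shorter-list row. Each line gives the 250 bases before the start from the mm10 (GRCm38) genome, 5′ to 3′ on the strand of the gene, with every CpG in capitals. Cabp7 and Grb10 had the most CpG in their 1 kb. Among members, Ankrd63 and Olig2 had some of the highest rows of the longer peak list. Plk5 had among the most bases in runs of a low cut-rate error. Not every member higher in the last 2 orders is printed. They lie at chr11:4746779-4747028 (Cabp7, minus strand), chr11:12037402-12037651 (Grb10, minus), chr2:118703964-118704213 (Ankrd63, minus), chr16:91225207-91225456 (Olig2, plus) and chr10:80356209-80356458 (Plk5, plus). Last come 2 CpG-rich promoters with the highest shorter-list rows among those free of exons, for comparison: Ccdc66 at chr14:27508461-27508710 (minus strand) and 4930535I16Rik at chr4:123918023-123918272 (minus, within the Rragc gene).
Cabp7, closed: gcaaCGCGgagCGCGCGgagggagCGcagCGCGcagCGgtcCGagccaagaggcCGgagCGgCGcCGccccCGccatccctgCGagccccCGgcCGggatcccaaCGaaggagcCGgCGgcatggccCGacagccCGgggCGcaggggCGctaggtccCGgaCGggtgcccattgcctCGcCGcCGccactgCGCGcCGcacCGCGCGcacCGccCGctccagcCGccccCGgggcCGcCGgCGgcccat
Grb10, closed: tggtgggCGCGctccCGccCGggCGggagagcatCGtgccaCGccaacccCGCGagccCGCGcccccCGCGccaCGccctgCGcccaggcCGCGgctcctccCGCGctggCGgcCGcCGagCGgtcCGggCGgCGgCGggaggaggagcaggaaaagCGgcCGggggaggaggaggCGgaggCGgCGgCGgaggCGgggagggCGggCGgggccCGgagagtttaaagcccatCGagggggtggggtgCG
Ankrd63, closed: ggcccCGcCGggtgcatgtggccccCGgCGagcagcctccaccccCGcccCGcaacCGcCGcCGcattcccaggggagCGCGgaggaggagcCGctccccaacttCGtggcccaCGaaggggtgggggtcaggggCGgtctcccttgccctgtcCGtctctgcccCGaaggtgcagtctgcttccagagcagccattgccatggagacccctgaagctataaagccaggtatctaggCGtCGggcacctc
Olig2, closed: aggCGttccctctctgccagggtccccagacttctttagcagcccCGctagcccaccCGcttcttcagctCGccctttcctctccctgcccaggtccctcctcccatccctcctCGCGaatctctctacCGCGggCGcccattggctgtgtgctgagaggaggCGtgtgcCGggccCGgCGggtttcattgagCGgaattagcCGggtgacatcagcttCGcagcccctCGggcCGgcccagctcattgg
Plk5, closed: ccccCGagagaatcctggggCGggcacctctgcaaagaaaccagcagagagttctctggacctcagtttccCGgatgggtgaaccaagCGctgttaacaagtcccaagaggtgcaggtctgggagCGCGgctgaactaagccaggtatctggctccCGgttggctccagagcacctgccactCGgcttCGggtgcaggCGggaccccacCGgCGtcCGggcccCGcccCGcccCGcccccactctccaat
Ccdc66, open: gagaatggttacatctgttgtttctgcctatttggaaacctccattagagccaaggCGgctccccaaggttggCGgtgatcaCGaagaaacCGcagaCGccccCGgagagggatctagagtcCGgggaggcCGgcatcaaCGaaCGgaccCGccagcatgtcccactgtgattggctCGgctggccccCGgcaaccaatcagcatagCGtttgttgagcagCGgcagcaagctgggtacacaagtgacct
4930535I16Rik, open: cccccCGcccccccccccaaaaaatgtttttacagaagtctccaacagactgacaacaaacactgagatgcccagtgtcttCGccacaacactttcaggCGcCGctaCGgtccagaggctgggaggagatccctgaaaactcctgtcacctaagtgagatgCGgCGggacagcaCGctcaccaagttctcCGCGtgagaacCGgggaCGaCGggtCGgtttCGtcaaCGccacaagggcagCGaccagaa
The Cabp7 stretch holds 43 CpG, that of Grb10 holds 39, and the Ankrd63, Olig2 and Plk5 stretches hold 19, 18 and 16. Open Ccdc66 has 15 CpG in the same length and open 4930535I16Rik has 17. Cabp7 and Grb10 were printed for their CpG number, so their high counts were fixed by that choice. Of the other closed stretches, that of Plk5 held fewer CpG than open 4930535I16Rik. The shorter-list row at Ccdc66 had a height of 21.1 in replicate 1 and 9.19 in replicate 2, and the row at 4930535I16Rik had 19.4 and 9.79.

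Heights are the authors' own values and carry an unstated factor per library. They are therefore read within a list and a mouse, and the depth in reads is unknown. At the 8490 CpG-rich promoters with a row in both mice, called open below, the median height was 4.77 in replicate 1 and 3.40 in replicate 2. A row was present in 1 mouse only at 236 further CpG-rich promoters. Replicate 1 alone left 497 CpG-rich promoters without a row and replicate 2 alone left 619. As a check of the tissue, 5 of 6 excitatory neuron markers had a row in both mice at the start used here, against 0 of 3 choroid plexus markers and 0 of 3 liver markers. Interneuron and astrocyte markers had one at 2 of 4 each, oligodendrocyte markers at 2 of 3 and microglial markers at 1 of 4. Vessel markers had one at 1 of 3 and markers of other brain regions at 0 of 5. Without a row in either mouse were also Gfap and Aqp4 of astrocytes and C1qa, Csf1r and Cx3cr1 of microglia. A missing row thus does not mark a cell type as absent. A promoter open only in a minor cell type of the tissue and one closed in every cell cannot be told apart in whole cortex.

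Closure fell with CpG content. Without a row in either mouse were 96.3% of promoters with 0 to 9 CpG, 53.4% of those with 20 to 29 and 13.2% of those with 40 to 49. Above the limit of 50 the share went on falling, from 7.35% at 50 to 59 CpG to 4.27% at 70 to 79 and 2.02% (12 of 593) at 120 to 180. Members therefore sat low in the CpG range of their class, with a median of 66.5 CpG against 75.0 at open CpG-rich promoters. Around the limit itself, 21 closed promoters had 49 CpG and 14 members had 50. Among the former were Dbx1 and En1, homeodomain regulators of brain patterning, whose nearest shorter-list rows lay 20309 and 4643 bp away. At the other edge of the rule, the nearest rows of Ahnak, Fam178b and Nfatc2 lay 1000, 998 and 996 bp from the start, and those genes are not members. Just beyond it were the members Slc6a4, the serotonin transporter, with a row 1023 bp away, and Lemd1, with one 1071 bp away.

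**Figure D1:**
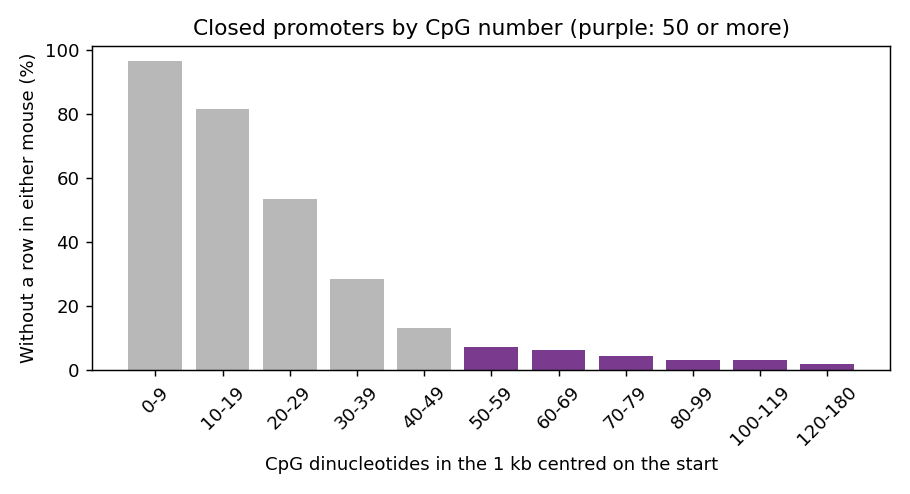
Share of autosomal protein-coding promoters without a shorter-list row within 1 kb in either mouse (vertical axis, percent) by the number of CpG in the 1 kb around the start (horizontal axis), with the members' range in purple. The bars fall from 96.3% at 0 to 9 CpG to 2.02% at 120 to 180.

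The 10 members with the most CpG were Cabp7, Grb10, Ebf3, Hoxa13, Zfp618, Cntfr, Bnc1, Hoxa4, She and Irx2. Cabp7, which encodes a calcium-binding protein of the calmodulin kind, led with 153 CpG in 1 kb and had no longer-list row and no base in a cut-rate run in either mouse, its nearest shorter-list row being 25392 bp away. Grb10, an imprinted adaptor that restrains insulin and growth factor signalling, came next with 149 CpG. It had no longer-list row in replicate 1 and one of height 0.426 in replicate 2, while another annotated start of the gene was open in both mice. Ebf3, a helix-loop-helix factor of neuronal differentiation, had 138 CpG and longer-list rows of 0.663 and 0.533. Hoxa13, which patterns the limbs and hindgut, had 136 CpG and neither a row nor a run. She, an SH2-domain adaptor gene with 125 CpG, had none either. High CpG thus went with weak signal in some of these members and with none in others.

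Many of the members were regulators of embryonic development. Among 12 families of transcription factors, signals and their inhibitors, 104 of 244 CpG-rich promoters (42.6%) were closed, beside 4.80% of all CpG-rich promoters. When the longer lists decided, which hold more and weaker rows, 25% of the same 244 were without a row in either mouse. The base for such shares, here and below, is 234 of all 9166 CpG-rich promoters closed with the longer lists. For shares without replicate 1 it is 619 of 9166. The families were listed with earlier results of these data known, so the shares describe the list and do not test it.

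Hox genes, which set position along the body axis behind the forebrain, were closed at 16 of 18 CpG-rich promoters (88.9%), the exceptions being Hoxa10 and Hoxa11. Of the 16, Hoxa4 had a longer-list row of 0.705 in replicate 1 and Hoxd1 one of 0.565 in replicate 1, and replicate 2 had none at any of them. Cut-rate runs told the same: 39 bases at Hoxa4 and 46 at Hoxd1 in replicate 1, and 0 at all 16 in replicate 2. Closed Hox promoters came in groups, with Hoxd13, Hoxd9, Hoxd8, Hoxd3 and Hoxd1 beside Evx2 on chromosome 2 and Hoxa4, Hoxa5, Hoxa6 and Hoxa13 among those on chromosome 6. Shorter-list rows were not far from several of them: 2405 bp from Hoxd8 in replicate 1 and 2429 bp in replicate 2, and 3583 and 3607 bp from Hoxa13. With rows counted only within 500 bp, all 18 were closed (100%).

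Other homeobox genes supplied the most members of any family, 47 of 93 (50.5%), of which 21 had a longer-list row in replicate 1 and 9 in replicate 2. With the longer lists 23.7% of the 93 were without a row. Pou4f1, a factor of sensory neurons with 124 CpG, had a row of 0.614 in replicate 1 and none in replicate 2. Six2, which keeps kidney progenitors undifferentiated, had 0.499 and none, and Irx2, of a group that patterns the neural plate, 0.590 and none. Higher rows in both mice stood at Lhx5 (0.918 and 0.757), which acts in the forebrain and hypothalamus, and at Isl1 (1.01 and 0.595), a factor of motor and cholinergic neurons. The Isl1 promoter was also far from other open DNA, with its nearest shorter-list row 306889 bp away. Interneuron regulators were members too: Lhx6 had neither a row nor a run, Dlx6 had neither, and Dlx2 had a row of 0.857 in replicate 1 and none in replicate 2. Their starts are thus read as closed in tissue that holds interneurons as a minority of cells.

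In the smaller factor families the share ranged widely. All 4 CpG-rich Gata promoters (100%) were closed, Gata2, Gata4, Gata5 and Gata6, which direct blood, heart and gut lineages. Gata4 had no row and no run, Gata2 had 43 bases in runs in replicate 2 alone, and Gata5 had a row of 0.353 in replicate 1 alone. Of the Pax genes 4 of 5 (80%) were closed, Pax1, Pax3, Pax7 and Pax9, but not Pax2. Pax3 and Pax7, regulators of neural crest and muscle, had neither row nor run in either mouse. T-box genes were closed at 6 of 9 promoters (66.7%). Among these Tbx1, of the pharyngeal arches and heart, had nothing in either mouse, Tbx2 had a row of 0.620 in replicate 1 only, and Tbx15 had 0.675 and 0.606. With the longer lists the Gata share was 50% and the T-box share 22.2%. Forkhead genes were closed at 6 of 29 (20.7%) and Sox genes at 1 of 14 (7.14%), a share that was 21.4% without replicate 1 and 0 with the longer lists. The lone Sox member was Sox14, a factor of thalamic and midbrain GABA neurons, with 0.304 in replicate 1 and none in replicate 2.

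Developmental bHLH genes were closed at 6 of 28 promoters (21.4%), Bhlhe23, Hand2, Heyl, Olig2, Ptf1a and Tcf15. Olig2, which specifies oligodendrocytes and marks their lineage in cortex, stood apart from the rest of this group: its longer-list row had heights of 1.02 in replicate 1 and 0.870 in replicate 2, and 414 and 400 bases lay in cut-rate runs. Ptf1a, needed for pancreas and cerebellar GABA neurons, had 0.578 in replicate 1 and none in replicate 2. Hand2, of heart and limb, had nothing in either mouse, and its nearest shorter-list row was 108318 bp away. The bHLH promoters with a row in at least 1 mouse included Neurog2, Hes5 and Olig1.

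Among secreted signals, Wnt ligands were closed at 8 of 15 promoters (53.3%). Wnt1 and Wnt3a, which act in the dorsal midline of the neural tube, had neither a row nor a run. Wnt7b had rows of 0.602 and 0.505, and another start of the gene was open in both mice. Wnt2b had no row in replicate 1 and 0.505 in replicate 2. Bmp and Gdf ligands were closed at 3 of 10 (30%), Bmp8b, Gdf6 and Gdf7, and Fgf ligands at 2 of 8 (25%), Fgf4 and Fgf8. Fgf8, the signal of the midbrain-hindbrain organizer, had 100 CpG and neither row nor run. The secreted inhibitors of Wnt and Bmp were closed at 1 of 11 (9.09%), Sfrp5. Without replicate 1 the share of the inhibitors was 18.2%.

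**Figure D2:**
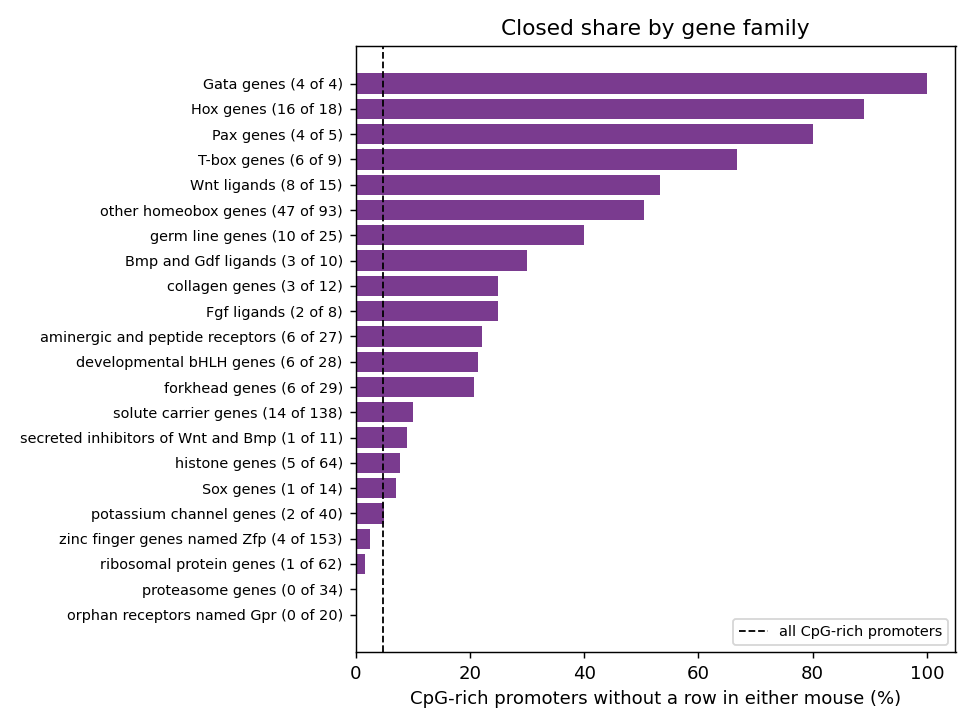
Closed share of the CpG-rich promoters of each gene family (horizontal axis, percent), with closed and all CpG-rich promoters of the family in brackets; the dashed line is the share over all CpG-rich promoters, 4.80%. Gata, Hox and Pax genes lie at 80% or above, while proteasome and Gpr genes lie at 0; the clustered protocadherins, with 0 of 2, are not drawn.

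Outside these families, receptors and transporters were examined. Receptors for amines and peptides were closed at 6 of 27 promoters (22.2%), Drd2, Drd5, Galr1, Gcgr, Glp1r and Pth1r, while no orphan receptor named Gpr was closed (0 of 20). With the longer lists the share of the former was 3.70%, beside 234 of all 9166 CpG-rich promoters. Drd2, the dopamine receptor of striatal neurons, had low longer-list rows, 0.480 and 0.320, yet 902 bases in replicate 1 and 502 in replicate 2 lay in cut-rate runs. Galr1, a galanin receptor, had 980 bases in replicate 1 and 1 in replicate 2. Solute carriers were closed at 14 of 138 (10.1%), 9 of them with a longer-list row in replicate 1 and 3 in replicate 2, and with the longer lists the share was 3.62%. Potassium channels were closed at 2 of 40 (5.00%), Kcnk15 and Kcnq1, near the 4.80% of all CpG-rich promoters. Without replicate 1 their share was 15%, beside 619 of all 9166 CpG-rich promoters.

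Several of the closed solute carriers carry neurotransmitters, which led to a list of transmitter identity genes chosen after their values were seen. Of 8 such CpG-rich promoters 5 (62.5%) were closed. They belong to Slc6a4, Slc18a2 (the vesicular monoamine transporter), Slc6a2 (the noradrenaline transporter), Slc18a3 (the vesicular acetylcholine transporter) and Slc32a1 (the vesicular GABA transporter). The first 3 serve cells whose bodies lie mostly in the brain stem. Slc6a4 was high by one measure, though its rows were 0.493 and 0.404. The lowest false discovery rate within 1 kb of its start was 2.63e-09 in replicate 1 and 1.09e-05 in replicate 2. It was the 1 member with a run under 0.001 in both mice. Slc6a4 was also the member nearest to a shorter-list row, which lay just outside the 1 kb. The part of that row in these values was not tested. Slc18a2 had 0.383 and none, Slc6a2 0.426 and none, Slc32a1 0.693 and none, and Slc18a3 nothing in either. Gad1 and Gad2, which make GABA and so mark the same interneurons as Slc32a1, had a row in at least 1 mouse.

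Genes of the germ line, such as those of meiosis and of transposon silencing, were closed at 10 of 25 CpG-rich promoters (40%). With at least 40 CpG as the minimum the share was 59.5%. That minimum brings in the promoters with 40 to 49 CpG, of which 13.2% were closed over all genes. A longer-list row lay at 1 of the 10 in replicate 1 and at 0 in replicate 2. That one was Dmc1, the meiotic recombinase, with 0.438. Developmental members had a row at 36.5% and 13.5%, and 10 genes are few for ranking the 2 groups. Ddx4, a helicase of germ cells, Sycp1 and Sycp2, which build the synaptonemal complex, Mael and Meioc had neither a row nor a run in either mouse. The median number of CpG in the 5 kb around the closed germ line starts was 97, against 204 for closed developmental promoters, so the CpG-rich stretch reached less far around the former.

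Imprinted and epithelial genes were listed after their values were seen. Of the imprinted genes 5 of 23 (21.7%) were closed, Dio3, Grb10, Igf2, Kcnq1 and Zdbf2, and the row at Grb10 in replicate 2 was their only longer-list row. Dio3, which inactivates thyroid hormone, had 111 CpG, Zdbf2 had 121 and Igf2, a growth factor, 102, all without a run in either mouse. Epithelial genes were closed at 11 of 17 (64.7%). Of these Ovol1, Cldn7 and Krt7 had no row and no run, Esrp1, a splicing regulator of epithelia, had 0.413 in replicate 1 alone, and Grhl2 had 0.264 in replicate 2 alone. Collagen genes were closed at 3 of 12 (25%; 41.7% without replicate 1), Col15a1 with rows of 0.699 and 0.438, and Col2a1 and Col8a2 with none.

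Proteasome and ribosomal protein genes were nearly absent from the members. No proteasome promoter was closed (0 of 34), and of ribosomal protein promoters 1 of 62 (1.61%) was, Rpl10l, a testis retrogene. Zinc finger genes named Zfp were closed at 4 of 153 (2.61%). Histone genes were closed at 5 of 64 (7.81%), beside 4.80% of all CpG-rich promoters, and all 5 lie in sequence that is repeated elsewhere in the genome.

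Repeated sequence marked a separate group of members. In the 1 kb of 71 members (16.1%) fewer than 90% of the 31-base words occurred once in the genome, beside 460 open CpG-rich promoters (5.42%). For 51 of the 71 the unique share was below 50%. How reads that match several places were treated is not given in the sources used here. Their longer-list rows were fewer, at 19.7% in replicate 1 and 14.1% in replicate 2, and 36.6% lay more than 50 kb from any shorter-list row, against 11.1% of all members. The 5 farthest members were of this kind: Gm21953, Gm21586, Gm3488, Gm13306 and Gm3500, with Gm21953 at 519987 bp in replicate 1 and 510327 bp in replicate 2. Local runs of members included 7 Gm13290-like genes on chromosome 4 between 88773834 and 88803254, and Fam177a with Srp54b and its neighbours on chromosome 12. Cntfr, a receptor for ciliary neurotrophic factor, had 131 CpG but no unique word, so its reading as closed rests on sequence found more than once. The part of this repetition in the missing rows was not tested.

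Closure was graded. A longer-list row lay within 1 kb at 177 members (40.2%) in replicate 1 and at 117 (26.6%) in replicate 2, a mean of 33.4% ± 9.64 (SD, n = 2 mice). CpG-poor promoters closed by the same rule had one at 6.94% of 7929 in replicate 1 and at 6.27% in replicate 2. Their median was only 9 CpG. Closed promoters with 40 to 49 CpG, just under the limit, had one at 34.4% and 27.9%. Members with 50 to 59 CpG had one at 35.1% and 20.1%, so the share did not rise sharply at the limit. A row was present in both mice at 88 members (20%), in replicate 1 alone at 89 and in replicate 2 alone at 29. In neither mouse was there one at 234 (53.2%). The longer lists come from the same cuts as the shorter ones. These shares therefore describe longer-list rows near members and support nothing by themselves. A shorter-list row lay within 2 kb of 49 members. Whether a counted longer-list row belonged to a shorter-list row outside the 1 kb was not tested.

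More often than not the rows that members had lay below the median height of their lists. In replicate 1 their heights ran from 0.0486 through a median of 0.553 to 1.26, against a median of 0.693 over all longer-list rows and 1.17 over shorter-list rows. In replicate 2 they ran from 0.174 through 0.443 to 0.937, against 0.578 and 0.909. The lowest rows of the shorter list had heights of 0.0669 in replicate 1 and 0.0505 in replicate 2, so the members' rows overlapped that list in height. Above the shorter list's median stood 1 member in replicate 1 and 2 in replicate 2. In replicate 1 the highest was at Grm2, a metabotropic glutamate receptor that restrains transmitter release, with 1.26 beside 0.802 in replicate 2. Ankrd63, an ankyrin-repeat gene, had 1.17 and 0.875. Sphk1, which makes sphingosine 1-phosphate, had 1.06 and 0.926, Ppm1m, a protein phosphatase, 1.16 and 0.819, and the kinase gene Src 1.03 and 0.937, the highest value of replicate 2. Aifm3 had 0.869 and 0.864 and Plk5 0.930 and 0.673.

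Runs of a low false discovery rate of the cut rate gave a finer reading. The authors list positions under 0.05, and at least 1 such position lay within 1 kb of 202 members (45.9%) in replicate 1 and 146 (33.2%) in replicate 2, a mean of 39.5% ± 9.0 (SD, n = 2 mice). Closed CpG-poor promoters, with their median of 9 CpG, had one at 8.46% and 8.19%. In both mice 114 members had a run and in neither 206 (46.8%). Under a rate of 0.01 there were 119 (27.0%) and 75 (17.0%), and under 0.001 there were 23 (5.23%) and 9 (2.05%). Where a member had a run, its median length in bases was 203 and 182. Averaged over all members this made 119 and 71.4 bases, beside 1209 and 1245 at open CpG-rich promoters and 14.3 and 13.0 at closed CpG-poor ones. The rule used the same cuts, so low values at members were fixed by their choice.

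Many bases in runs within 1 kb marked a few members. Dzip1, a gene of ciliary signalling, had 810 bases in replicate 1 and 716 in replicate 2, though another start of the gene was open in both mice. Plk5, a polo-like kinase expressed in brain, had 707 and 664, and Ankrd63 780 and 528. Dmrta1, of a sex-determination factor family, had 753 and 579, and Acan, whose product builds perineuronal nets, 735 and 491. Lox, a collagen cross-linking enzyme, differed most between the mice in this group, with 1002 and 366. Dll4, a Notch ligand of vessels, had 784 and 361, Lypd6b 645 and 494, and Igf2bp3 667 and 490. In each of these more bases lay in runs in replicate 1.

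Footprints, short protected stretches within cut DNA, were called within 1 kb of 144 members (32.7%) in replicate 1 and 98 (22.3%) in replicate 2, a mean of 27.5% ± 7.39 (SD, n = 2 mice). Closed CpG-poor promoters, with their median of 9 CpG, had one at 5.10% and 4.35%. In both mice 68 members had a footprint, and 266 had none in either. Ankrd63 had 10 and 6, Dzip1 9 and 7, and Plk5 6 and 9, so these 3 members with many bases in runs held several footprints in each mouse. The deposited footprint score is constant, so only positions were read.

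Among the groups of members, the shares of the 2 mice lay farthest apart at developmental ones. A longer-list row was found at 38 of the 104 in replicate 1 (36.5%) and at 14 in replicate 2 (13.5%), and at 9 in both. The other members of unique sequence, 266 in all, had one at 47.0% in replicate 1 and 35.0% in replicate 2. Runs followed, at 41.3% and 20.2% of developmental and 54.1% and 41.4% of other members, and footprints at 30.8% and 10.6% against 38.7% and 30.5%. Heights at open CpG-rich promoters were also larger in replicate 1, by a median log2 ratio of 0.49, a difference that includes the unstated factors. With 1 library per mouse, the animal and its library cannot be told apart. Members had to lack a shorter-list row in both mice, while replicate 1 alone left 497 CpG-rich promoters closed and replicate 2 alone 619. When each mouse alone chose, longer-list rows lay at 44.9% of its closed promoters in replicate 1 and 43.8% in replicate 2. The part of the joint rule in the gaps between mice at members was not tested. Developmental members with runs wholly or nearly confined to replicate 1 included Foxl2, with 589 bases in runs in replicate 1 and 0 in replicate 2, Tcf15 with 582 and 0, Tbx2 with 564 and 0, and Gdf6 with 582 and 3. In all, 27 developmental members had a run in replicate 1 alone and 5 in replicate 2 alone. Of the latter Evx2 had 638 bases and Alx4 had 529.

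**Figure D3:**
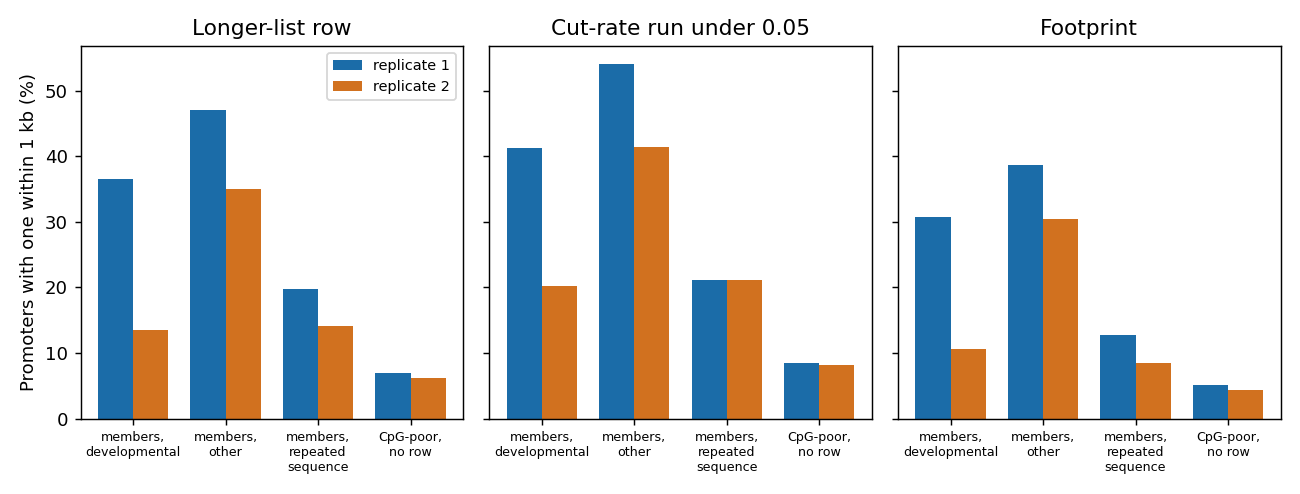
Share of promoters with a longer-list row, a cut-rate run under 0.05 or a footprint within 1 kb (vertical axis, percent) in replicate 1 (blue) and replicate 2 (orange), for developmental members, other members, members of repeated sequence and closed CpG-poor promoters. Other members are highest in all 3 panels (47.0% and 35.0% for rows) and closed CpG-poor promoters, with a median of 9 CpG, lowest (6.94% and 6.27%). The mice lie farthest apart at developmental members, all chosen for lacking a shorter-list row in both mice.

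The place of the weak signal was read from row centres and from runs. At members the highest longer-list row was centred downstream of the start at 111 and upstream at 66 in replicate 1, and at 64 and 53 in replicate 2. At open CpG-rich promoters it was centred downstream at 2590 and upstream at 5900 in replicate 1. Runs gave another picture, with more bases after the start than before it in both sets. Within 1 kb upstream and downstream 4.28% and 7.62% of bases at members were under 0.05 in replicate 1, and 53.8% and 67.0% at open promoters. A longer-list row, the highest or another, covered the start itself at 56 members in replicate 1 and 42 in replicate 2. In 100 bp bins, the share of bases under a rate of 0.05 at members peaked at 13.8% in replicate 1 and 9.45% in replicate 2, both centred 50 bp after the start, where open promoters reached 98.0% and 97.8%. Among developmental members the highest bin of replicate 1 was 9.49% at 350 bp after the start, and 4.08% of bases 2 to 5 kb downstream were under the rate, beside 1.74% for other members. In replicate 2 their highest bin was 6.60%, centred at -2950 bp from the start, and the values downstream were 2.74% and 1.31%. The rule bars shorter-list rows within 1 kb, so the level there was limited by the choice of members.

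**Figure D4:**
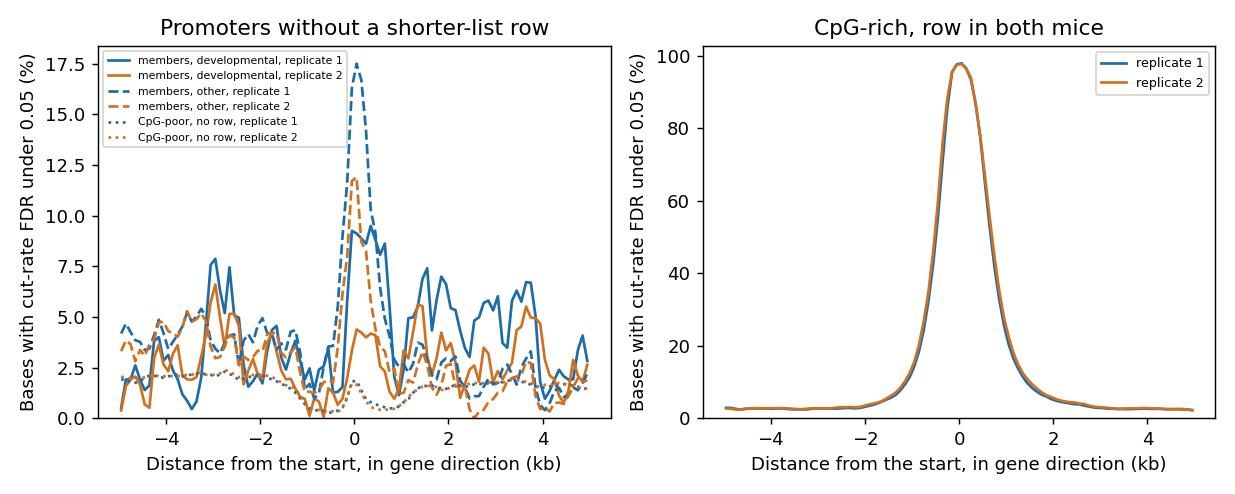
Bases with a cut-rate false discovery rate under 0.05 (vertical axis, percent, in 100 bp bins) by distance from the start in gene direction (horizontal axis, kb), at promoters without a shorter-list row (left) and at open CpG-rich promoters (right, on another scale). Other members peak at 17.5% in replicate 1 and 11.9% in replicate 2 just after the start, and open promoters reach 98.0%. Developmental members are lower around the start. On average they are higher 2 to 5 kb downstream, at 4.08% and 2.74% against 1.74% and 1.31% for other members.

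Sequence features and neighbours were compared between members and open CpG-rich promoters. The ratio of observed to expected CpG had a median of 0.704 in members and 0.799 in open promoters, while GC content was alike at 62.9% and 62.4%, so this ratio restates the difference in CpG number. CpG in the 5 kb around the start had a median of 148 in members and 141 in open promoters, so the wider region was no poorer in CpG at members. Developmental members reached 204 and the other unique members 135. Another protein-coding gene started within 1 kb on the opposite strand at 23 members (5.23%) and at 1713 open promoters (20.2%), and at 0 developmental members. A row at such a neighbour also falls within the 1 kb that the rule reads. These are descriptions of whole sets that differ in gene content as well.

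The start used here was not the only one of many genes. Among members 213 (48.4%) had another annotated start more than 1 kb away, against 67.9% of open CpG-rich promoters. Such a start had a shorter-list row within 1 kb at 50 members (11.4%) in replicate 1 and 44 (10.0%) in replicate 2, a mean of 10.7% ± 0.964 (SD, n = 2 mice), and at 38 in both. Open CpG-rich promoters had such a start at 18.7% and 18.3%, and closed CpG-poor ones at 14.4% and 13.9%. The genes Src, Rara, Dab2ip, Wnt7b, Grb10 and Dzip1 were among these 38, so they are closed at the start used here and not as genes. A RefSeq start of the same gene lay within 1 kb at 308 of the 317 members found in the RefSeq table for mm10 (97.2%), against 97.9% for open promoters. The longest transcript was not itself typed as protein-coding at 44 members (10.0%), 30 of them retained introns, among them those of Sphk1, Aifm3 and Dzip1, against 15.6% of open CpG-rich promoters.

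Motif content was read in the 300 bases from 250 before to 50 after the start, as exact letters on either strand, with no searched motif contained in another. The ETS motif CCGGAAG, bound by factors such as GABPA, was present in 5.45% of members, 19.5% of open CpG-rich promoters and 11.1% of all promoters. By CpG class its share in members and open promoters was 5.97% and 22.2% at 50 to 59 CpG, 7.49% and 21.6% at 60 to 79, and 1.68% and 16.5% at 80 or more. Developmental members had it at 0 of 104 and open developmental promoters at 3.88%, and non-developmental members had it at 7.14%. In unique sequence 4.07% of members carried it. The YY1 motif AAGATGGCG was in 1 member (0.227%), 3.65% of open CpG-rich promoters and 1.91% of all. The NRF1 motif GCGCATGC was in 1.82% of members, 6.00% of open and 3.32% of all promoters. Each of these 3 motifs had a lower share in members than in open CpG-rich promoters. Among developmental promoters alone NRF1 went the other way, at 1.92% of members and 0.971% of open ones, and YY1 was absent from both.

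Shares of the other motifs were as follows. The GC box GGGCGG, bound by SP and KLF factors, was in 72.0% of members, 75.8% of open CpG-rich promoters and 44.7% of all. The CCAAT box CCAAT of NFY was in 33.0%, 36.0% and 37.5%, the TATA box TATAAA in 6.59%, 5.15% and 12.8%, and the AP-1 motif TGANTCA in 2.95%, 3.19% and 6.68%. The cAMP response element TGACGTCA was in 1.36% of members, 4.02% of open promoters and 2.31% of all. For the ZBTB33 box CTCGCGAG the shares were 1.59%, 2.32% and 1.12%, and for the RFX half-site GTTGCCAT 0.227%, 0.883% and 1.05%. The E-box CACGTG, which MYC, MAX and USF bind, was in 14.5% of members, 10.9% of open and 7.65% of all promoters. At 80 CpG or more its share was 10.9% in members and 10.3% in open promoters, and in the full 1 kb it was 24.5% and 22.2%. Developmental members carried the E-box at 18.3% and the CCAAT box at 53.8%, beside 5.83% and 43.7% of open developmental promoters. In the full 1 kb the ETS motif was in 13.4% of members and 31.8% of open promoters, and the YY1 motif in 0.682% and 6.93%. A match is a run of letters and not a bound site.

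**Figure D5:**
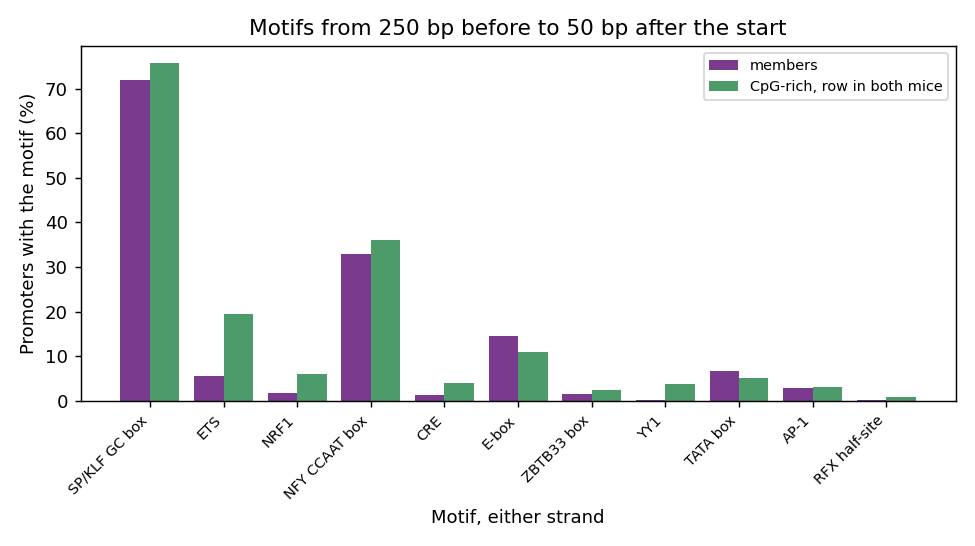
Share of promoters with each motif (vertical axis, percent) in the 300 bases around the start, for members (purple) and open CpG-rich promoters (green). The ETS, NRF1 and YY1 bars are lower in members (5.45%, 1.82% and 0.227%) than in open promoters (19.5%, 6.00% and 3.65%), and the E-box bar is higher (14.5% against 10.9%).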

How the data were processed

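DNase-seq of left cerebral cortex was analysed for 2 mice, 1 library each. Per the deposited read-me, peaks, footprints and cut-rate values were produced for each library on mm10. The aligner and the callers: not given in the sources used here. Peak heights deposited by the authors are a signal whose normalization is not stated. Their deposited cut-rate values are false discovery rates, a kind of q-value (an adjusted p-value), for positions under 0.05. The deposited footprint score is constant, so only positions were used. Of the rows of the shorter peak list, 98.3% in replicate 1 and 98.2% in replicate 2 touch a row of the longer one.

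Starts came from GENCODE M21, taking the transcript of greatest summed exon length for each of 20807 autosomal protein-coding genes. CpG were counted in GRCm38 from 500 bases before the start over 1 kb. A row counted when any base lay within 1 kb of the start. Sequences printed are from GRCm38, and the RefSeq starts from the RefSeq table for that build.

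The members, gene lists and motifs were chosen with earlier results of these data known, so every share is a description. Named genes are the 10 members with the most CpG, with the highest longer-list rows and with the most bases in runs, the 3 with the most CpG per family, the 5 nearest to and farthest from a shorter-list row, and genes just outside the rule. Any other gene was chosen after its values were seen. A few named items are not reported here. Distances, bases in runs and CpG counts were tested on simulated data and were right in 1000 of 1000, 800 of 800 and 400 of 400 cases. Python 3.11.15, numpy 2.4.6, pandas 2.3.3, numba 0.67.0 and matplotlib 3.10.9 were used.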

Additional observations from a re-analysis of the deposited data

How the results depend on the processing

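With rows within 500 bp or 2 kb the members numbered 508 and 391, with 40 or 60 CpG as the minimum 655 and 306, and with all starts of the gene required to be without a row 381. With the longer lists in place of the shorter ones 234 remained, and 25% of developmental promoters were closed. Each mouse alone gave 497 to 619 members, longer-list rows at 43.8% to 44.9% of them, runs at 49.1% to 51.1%, footprints at 37.6% to 38.2%, another open start at 11.3% to 12.1%, and a closed developmental share of 48.8% to 51.6%. Runs under 0.01 were found at 22.0% of members as the mean of both mice. Another start was open at 9.45% with rows within 500 bp, at 11.8% with transcripts typed protein-coding, and at 11.8% with unique sequence only, an alternative chosen after seeing the data. With at least 60 CpG the YY1 motif was in 0 members, and in the 1 kb the ETS motif was in 13.4%. The causes of these shifts were not tested. Among single families and motifs, 320 alternative values lay within the 95% binomial interval of the main one, 24 lay outside and 0 reversed. That interval is wide for small families and treats promoters as independent. The alternatives reuse the same libraries and largely the same promoters, so this tally does not measure robustness. With the longer lists bHLH genes were closed at 10.7% and Wnt ligands at 33.3%, Fgf ligands at 12.5% with all starts required, Pax genes at 50% with 60 CpG, and histone genes at 0 with rows within 2 kb. Depth in reads is unknown, so a row missed for few cuts and closed DNA cannot be told apart. No paired analysis was possible because there is only 1 group. With 2 mice, the SD of each mean rests on a single difference.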
